A study of Rattus norvegicus with 102 samples.

Results

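The 9 genes described here are receptors and other markers of microglia in the undisturbed brain: Tmem119, P2ry12, P2ry13, Gpr34, Cx3cr1, Csf1r, Emr1, Aif1 and Itgam. They were chosen by gene symbol, and each symbol matched 1 row among the 26284 genes of the Illumina table. RNA had been extracted from CA1, CA3 and the dentate gyrus (DG), which were dissected from the hippocampus, and 1 library per subfield and rat had been made from each of 34 male Fischer 344 rats. The groups were young rats (Y, 5 to 6 months, n = 10), aged rats that were unimpaired in a water maze (OG, 17 to 22 months, n = 12) and aged rats that were impaired in it (OB, 17 to 22 months, n = 12). The labels name no transgene and no drug, all rats had been tested in the maze before tissue was taken, and all came from the colonies of the National Institute on Aging. Values are normalised read counts of poly-A libraries read on an Illumina instrument unless another table is named. A second table from an Ion Proton instrument, made from the same rats, was used to test results again.

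Microglia are the resident macrophages of the brain, and their survival depends on Csf1r, the receptor for the cytokines Csf1 and Il34. They watch their surroundings through Cx3cr1, which binds the neuronal ligand Cx3cl1, and through the receptors P2ry12 and P2ry13, which respond to extracellular nucleotides. Tmem119, P2ry12 and Gpr34 are usually high in resting microglia and are known to fall when microglia become strongly activated, while Aif1 (Iba1), Emr1 (the F4/80 antigen, Adgre1 in current nomenclature) and Itgam (CD11b, which pairs with the integrin chain Itgb2) are shared with other macrophages. In whole tissue, more cells of a type and more RNA per cell cannot be told apart.

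Promoter sequences are shown for Emr1 and Cx3cr1, the genes that passed the test for age, and for Itgam, which differed most between CA3 and DG. They were taken from RefSeq on the GRCr8 build, run 5′ to 3′ on the strand of the gene, and end shortly after the gene's start. The sequence tables held 6 of the 9 genes (P2ry13, Gpr34, Cx3cr1, Csf1r, Emr1 and Itgam). Capitals mark matches, on either strand, to GAGGAA, the core of the PU box bound by the macrophage factor Spi1 (PU.1), or to TGTGGT, the core bound by Runx factors.

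Emr1, chr9:2329190-2329489, plus strand: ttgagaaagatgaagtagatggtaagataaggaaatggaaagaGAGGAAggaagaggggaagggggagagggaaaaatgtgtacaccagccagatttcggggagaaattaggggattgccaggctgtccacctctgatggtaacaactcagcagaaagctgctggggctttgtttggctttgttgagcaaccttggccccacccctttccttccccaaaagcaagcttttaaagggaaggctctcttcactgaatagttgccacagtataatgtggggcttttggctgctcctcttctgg
Cx3cr1, chr8:128677017-128677316, minus strand: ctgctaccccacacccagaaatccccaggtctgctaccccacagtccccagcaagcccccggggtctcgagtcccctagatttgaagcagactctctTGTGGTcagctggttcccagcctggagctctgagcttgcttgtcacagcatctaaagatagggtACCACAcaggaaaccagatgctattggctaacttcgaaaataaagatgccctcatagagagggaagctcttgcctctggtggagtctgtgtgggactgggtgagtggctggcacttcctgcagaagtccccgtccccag
Itgam, chr1:192089342-192089641, plus strand: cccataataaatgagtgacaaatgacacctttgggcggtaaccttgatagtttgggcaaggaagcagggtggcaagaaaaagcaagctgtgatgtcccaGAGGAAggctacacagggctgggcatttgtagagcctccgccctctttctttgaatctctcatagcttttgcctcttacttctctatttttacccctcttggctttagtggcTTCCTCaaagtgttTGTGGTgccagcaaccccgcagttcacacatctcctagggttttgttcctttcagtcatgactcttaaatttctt

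The PU box core occurred in 4 of the 6 promoters (Gpr34, Csf1r, Emr1 and Itgam) and in 27.6% of all 33469 promoters of this length. The Runx core occurred in 3 of 6 (Gpr34, Cx3cr1 and Itgam) and in 17.3% of all promoters. The composite of an ETS and an IRF site, searched on both strands as well, occurred in 0 of 6 and in 2.9% of all promoters. Emr1 held 1 PU box core and no Runx core, Cx3cr1 held 2 Runx cores and no PU box core, and P2ry13 held none of the motifs. These are matches of letters and not measured binding sites.

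Reads of all 9 genes were found in every library. The lowest in reads was P2ry13, with 16 to 240 reads per library and a median of 51.0. Emr1 had 46 to 680 reads, Aif1 37 to 983 and Csf1r 487 to 6057. Illumina libraries held 3.25 to 42.8 M reads assigned to genes (median 10.7 M), and Ion Proton libraries held 4.47 to 21.4 M. By subfield markers, 10 libraries lay nearer to another subfield than to their label in both poly-A tables (2 labelled CA1, 4 CA3 and 4 DG). All of them came from aged rats (6 from OG and 4 from OB), and 6 of their 7 rats were numbered from 9000 upward. The rat numbers form a series below 9000 (18 rats: 5 Y, 6 OG, 7 OB) and one from 9000 upward (16 rats: 5 Y, 6 OG, 5 OB), which have the same sizes as the rats of the study's sites in Florida and Arizona, although the labels do not tie a rat to a site. Results are given below with and without these libraries and series where that changed a call.

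The first comparison asked whether the genes differ between subfields regardless of group. The 9 genes were lower in DG than in CA1, by a median of 0.28 on the log2(value + 1) scale, and 8 of 9 were lower in DG than in CA3 (limma, adjusted p-values by Benjamini-Hochberg over 14179 genes). In the whole table, 29.0% of genes were called higher in CA1 than in DG, 28.9% higher in CA3 than in DG and 18.3% higher in CA1 than in CA3. Between CA1 and CA3 limma called 0 of the 9 genes, 2 had an unadjusted p under 0.05, and edgeR and DESeq2 called 1 each.

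P2ry12 showed the largest difference between CA1 and DG. Over the 34 rats it ran from 165.8 through a median of 248.8 to 379.1 normalised reads in CA1 and from 132.8 through 199.3 to 272.7 in DG, so that the subfields overlapped, but within a rat the DG library was below the CA1 library in 30 of 34 rats. The log2 difference was 0.35 (SE 0.0618, adjusted p = 1.28e-06), a level 1.27 times as high in CA1. The differences of the other 8 genes lay between 0.25 for Itgam (SE 0.0959, limma adjusted p = 0.0201) and 0.33 for Aif1 (SE 0.0659, limma adjusted p = 1.13e-05).

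Between CA3 and DG the largest difference was that of Itgam, at 0.48 (SE 0.0959, adjusted p = 1.14e-05). CA3 libraries held 250.4 through 336.3 to 1042 normalised reads of Itgam and DG libraries 140.7 through 277.4 to 416, with DG below CA3 in 27 of 34 rats. In rats numbered below 9000 alone the difference was 0.80 (limma adjusted p = 2.67e-07), and in those from 9000 alone it was 0.13 (95% interval -0.05 to 0.30, adjusted p = 0.266). Over all rats Cx3cr1 followed with 0.31 (adjusted p = 4.23e-06, DG below CA3 in 32 of 34 rats) and Aif1 with 0.30 (adjusted p = 4.99e-05, 28 of 34). P2ry13 was the exception, with a difference of 0.14 (95% interval -0.01 to 0.28, adjusted p = 0.112) and DG below CA3 in 21 of 34 rats.

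Itgam was also the gene that came nearest to differing between CA1 and CA3. Its CA1 minus CA3 difference was -0.23 (95% interval -0.42 to -0.04, limma adjusted p = 0.0537), while P2ry13 leaned the other way at 0.15 (adjusted p = 0.103). With the rat as a block, which pairs the subfields of 1 animal, Itgam and P2ry13 both passed between CA1 and CA3 (2 of 9 genes), and all 9 passed between CA3 and DG. The share of all genes called with the block is not given here, so these counts cannot be set against it. The other 7 genes differed by -0.03 to 0.09 between CA1 and CA3. The CA1 minus CA3 difference of Itgam was -0.52 in rats below 9000 alone (adjusted p = 0.000411) and 0.10 in those from 9000 alone (95% interval -0.07 to 0.28), so its direction turned between the series. DG was the lowest of the 3 subfields within a rat in 31 of 34 rats for Tmem119, in 29 for Cx3cr1 and Csf1r, and in 18 for P2ry13.

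Each subfield difference was also fitted within the rat number series, which was chosen after the data had been seen. Between CA1 and DG, 8 of 9 genes were called higher in CA1 below 9000 (27.4% of all genes) and 8 of 9 from 9000 (18.5%), without Itgam in the former and without P2ry13 in the latter. Between CA3 and DG, 7 of 9 were called below 9000 (32.5% of all genes) and 6 of 9 from 9000 (19.3%). Between CA1 and CA3, Itgam alone was called lower in CA1 below 9000 (27.1% of all genes) and 0 of 9 from 9000 (6.70%), where 0 of 9 had an unadjusted p under 0.05. A test of the difference between the series called Itgam for CA1 minus CA3 (0.63, limma adjusted p = 0.001) and for CA3 minus DG (-0.67, adjusted p = 0.000334) and none of the other 8 genes, against 39.7% and 48.4% of all genes in either direction. For CA1 minus DG it called 0 of 9 and 0.839% of all genes, with 0 of 9 at an unadjusted p under 0.05. In this test and in the fits within a series the libraries of a rat entered as independent. Neither was run with the rat as a block.

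**Figure D1:**
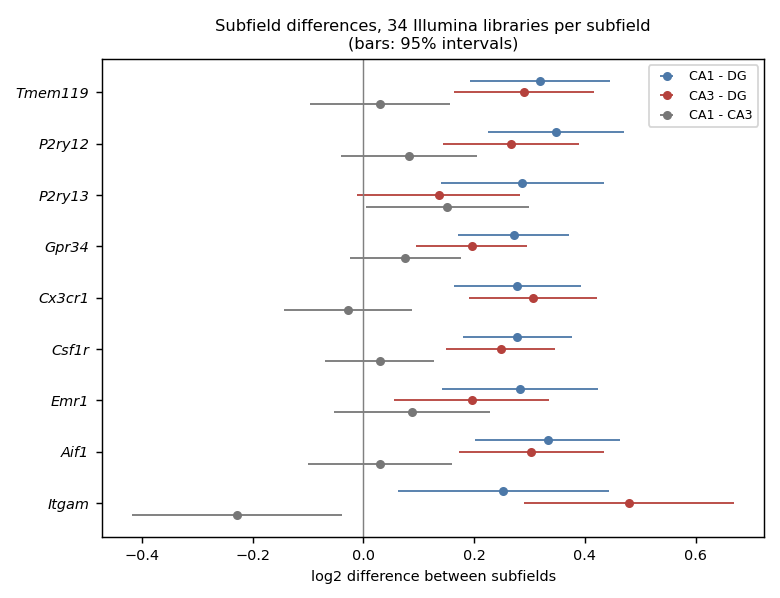
Log2 differences between subfields for the 9 genes (x axis), with 95% intervals as bars and 34 Illumina libraries per subfield. The differences of CA1 and CA3 from DG lie between 0.14 and 0.48, and those between CA1 and CA3 lie around 0, with Itgam lowest at -0.23.

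Other glial and vascular genes were lower in DG as well. Of 21 tested microglial genes outside the 9 (among them Ctss, Trem2 and the C1q chains), 21 were called higher in CA1 than in DG and 18 higher in CA3 than in DG, with median differences of 0.29 and 0.26. Oligodendrocyte markers were higher in CA1 and in CA3 than in DG for 8 of 8 genes each, with medians of 0.73 and 0.90, and oligodendrocyte precursor markers for 6 of 6 each (0.31 and 0.43). Endothelial markers were higher in CA1 for 8 of 8 and in CA3 for 6 of 8, meningeal markers for 6 and 3 of 7, and astrocyte markers for 5 and 4 of 8. Granule cell markers were higher in DG in both contrasts for 6 of 6. The part of these other cells in the lower levels of DG was not tested.

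On the Ion Proton, 4 of 9 genes were called higher in CA1 than in DG (Tmem119, P2ry12, Csf1r and Emr1), and 6 of 9 higher in CA3 than in DG, against 15.4% and 15.8% of all genes in that table. Cx3cr1 (-0.27, limma adjusted p = 0.0105) and Itgam (-0.35, adjusted p = 0.0211) were called lower in CA1 than in CA3 there, as were 8.05% of all genes. Aif1 (-0.03, CA1 minus DG) and Gpr34 (-0.02, CA3 minus DG) had the opposite sign there without passing the threshold.

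Aged rats were compared with young rats within each subfield. The fitted level of each of the 9 genes lay higher in the aged rats in all 3 subfields, with median log2 differences of 0.25 in CA1, 0.21 in CA3 and 0.20 in DG, while the medians over all genes tested were -0.0045, -0.0136 and -0.0015. After adjustment over all genes, Emr1 rose in CA1 and DG and Cx3cr1 rose in DG, and the other differences did not pass. The share of all genes called higher in aged rats was 0.338% in CA1, 0% in CA3 and 0.285% in DG. In CA3, where limma called 0 of 9 genes and 0 of 14246 in all, 6 of the 9 and 471 of all genes had an unadjusted p under 0.05, and edgeR and DESeq2 also called 0 of the 9. With the Ion Proton table fitted alone, limma called 0 of the 9 genes in any subfield, and 0.0197%, 0.00652% and 0.0797% of all genes as higher in CA1, CA3 and DG.

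**Figure D2:**
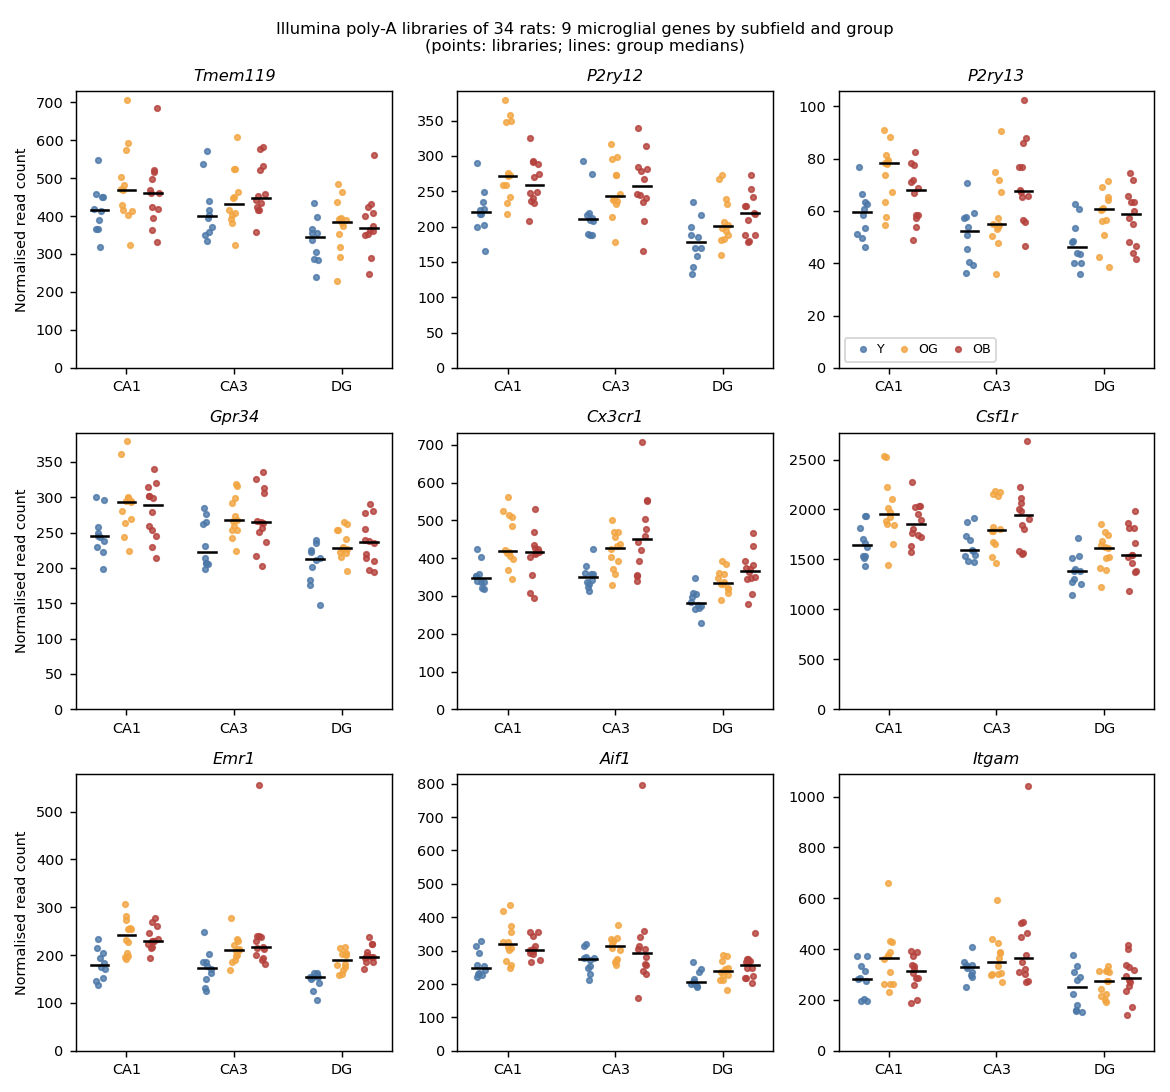
Normalised read counts (y axis, from 0) of the 9 genes in the Illumina libraries of young (Y), aged unimpaired (OG) and aged impaired (OB) rats, by subfield (x axis), with 1 point per library and lines at the group medians. Aged libraries of Emr1 in DG lie above the highest young one in 22 of 24 cases, and a single OB library in CA3 stands far above all others for Emr1, Aif1 and Itgam.

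Emr1, an adhesion receptor of macrophages, showed the largest age difference of the 9 genes in every subfield of the Illumina table. In CA3 P2ry13 stood slightly above Emr1 on the Ion Proton (0.388 against 0.379) and in the WT table (0.314 against 0.284). In DG its values ran from 105.3 through a median of 154 to 163.2 normalised reads in young and from 158.1 through 196.6 to 236.9 in aged rats. Nearly all of the aged libraries were higher, as 22 of 24 lay above the highest young library. The log2 difference was 0.41 (SE 0.0633, limma adjusted p = 0.000462), which is 1.33-fold. In CA1 Emr1 ran from 138.5 through 178.6 to 233.1 in young and from 191 through 231 to 306.8 in aged rats, with all 24 aged libraries above the young median and 10 above the highest young library (18 without that library, of rat R2175). The difference there was 0.39 (SE 0.0763, adjusted p = 0.00691). In CA3 it was 0.37 (SE 0.115, adjusted p = 0.666), from 124.7 through 173.3 to 248.4 in young and 169.9 through 213.1 to 555.5 in aged rats, and 23 of 24 aged libraries lay above the young median. Of the aged CA3 libraries 2 exceeded the highest young one, of rat R9876, and 15 exceeded the next, at 201.4.

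Cx3cr1, the fractalkine receptor, rose in DG. Its young DG libraries ran from 227.9 through 280.6 to 348.1 normalised reads and its aged libraries from 277.5 through 348.3 to 466, a log2 difference of 0.31 (SE 0.0629, adjusted p = 0.0151). In DG 23 of 24 aged libraries lay above the young median and 12 above the highest young library (20 without that library, of rat R2175). In CA3 Cx3cr1 ran from 314 through 349.2 to 425.7 in young and from 329.4 through 435.8 to 707.8 in aged rats (log2 difference 0.31, adjusted p = 0.364), and 13 of 24 aged libraries exceeded the highest young one. In CA1 the young median of 346.4 stood against 417.2 in aged rats, but 2 aged libraries fell below the lowest young library, and the difference of 0.26 did not pass (adjusted p = 0.227).

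P2ry12 and Csf1r, the receptors for nucleotides and for Csf1, did not pass the adjusted threshold. P2ry12 ran from 165.8 through 220.2 to 289.7 in young and from 208.5 through 270.6 to 379.1 in aged CA1 (log2 difference 0.31, SE 0.0828, adjusted p = 0.115), and the young median was exceeded by 22 of 24 aged libraries. In DG its young libraries ran from 132.8 through 177.6 to 235 and its aged libraries from 159.1 through 207.8 to 272.7 (0.25, adjusted p = 0.405). Csf1r ran from 1437 through 1645 to 1939 in young and from 1442 through 1911 to 2537 in aged CA1 (0.21, SE 0.0678, adjusted p = 0.323). For both genes the groups overlapped, and 7 and 11 of the 24 aged CA1 libraries exceeded the highest young library. For P2ry12 that library was of rat R9780, and without it 15 of 24 exceeded the highest young value of 248.9.

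After the thresholds of the study, but with limma in place of its DESeq2, genes with an unadjusted p under 0.01 in the Illumina table were tested again in the Ion Proton table, and were kept at a one-sided p under 0.05 in the same direction. In CA1 and in DG 6 of the 9 genes entered and 4 were kept, which were P2ry12, Csf1r, Cx3cr1 and Emr1 in each. In CA3 3 entered and Cx3cr1 and Emr1 were kept. Over all genes this procedure kept 0.676% as higher in CA1, 0.337% in CA3 and 0.920% in DG. The Ion Proton differences of Emr1 were 0.38, 0.38 and 0.44 in CA1, CA3 and DG, and those of P2ry12 were 0.33, 0.33 and 0.43. Those of Cx3cr1 were 0.34, 0.36 and 0.18, so that its DG difference, called in the Illumina table at 0.31, was smaller on the Ion Proton (95% interval -0.02 to 0.39) and in the WT table (0.16), where it was not called. Both tables came from the same rats, so the second says nothing about differences between animals. Cx3cr1 and Csf1r also stand, with Itgb2, Trem2 and Gpr84, in the study's own list of age genes shared by the subfields, which was chosen on these rats and is not independent evidence of their direction. Csf1r did not enter in CA3 here (limma unadjusted p = 0.0103), and Emr1, kept here in each subfield, is not in that list.

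The nucleotide receptor P2ry13 and the lipid receptor Gpr34 were higher in aged rats by similar amounts without passing. P2ry13 differed by 0.25, 0.34 and 0.27 in CA1, CA3 and DG (adjusted p = 0.498, 0.999 and 0.544), and its aged CA3 libraries spread from 35.99 to 102.4 normalised reads around young values of 36.25 to 70.73. Gpr34 differed by 0.20, 0.21 and 0.20 (adjusted p = 0.526, 0.999 and 0.393). In DG, 10 of 24 aged libraries of Gpr34 lay above the highest young value of 239.1. For neither gene were the groups separate.

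For Tmem119 and Itgam the unadjusted p was above 0.05 in every subfield of the Illumina table. Tmem119 differed by 0.16, 0.13 and 0.16 (unadjusted p = 0.0948, 0.139 and 0.113), and its aged CA1 libraries, at 324.1 through 464.8 to 704.6 normalised reads, spanned nearly all of the young range of 318.9 to 547.8. On the Ion Proton Tmem119 differed by 0.11, 0.17 and 0.30 and was not called, although in DG the unadjusted p was 0.013 (limma adjusted p = 0.575) and 15 of 24 aged libraries exceeded the highest young one. In the WT table its unadjusted p was 0.0379 in CA3 (limma adjusted p = 1). Itgam differed by 0.23, 0.23 and 0.20 (unadjusted p = 0.105, 0.108 and 0.183) with the largest SE of the 9 genes in each subfield, and 16 of 24 aged DG libraries lay above its young median of 252.1.

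The direction of Aif1 differed between the tables. In the Illumina table its difference was 0.29 in CA1 (SE 0.0757, adjusted p = 0.0995), where 24 of 24 aged libraries exceeded the young median of 248, and 0.19 in DG (adjusted p = 0.574). In the Ion Proton table its differences were -0.09 in CA1 (95% interval -0.53 to 0.35) and -0.04 in DG (-0.34 to 0.26), so its direction turned there while the intervals held 0. In CA3 the differences of Aif1 were 0.17 and 0.01. The other 8 genes kept their direction in both tables and in all 3 subfields.

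**Figure D3:**
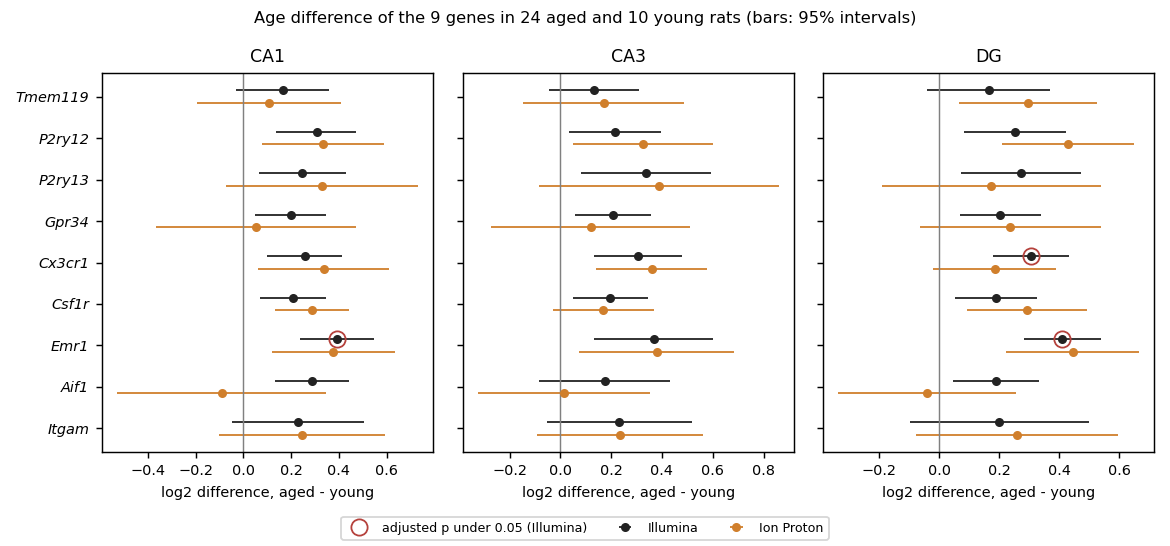
Log2 difference between aged (n = 24) and young (n = 10) rats for each gene and subfield in the Illumina (black) and Ion Proton (orange) tables, with 95% intervals as bars and red circles at an adjusted p under 0.05. Emr1 in CA1 and DG and Cx3cr1 in DG are circled, and Aif1 lies below 0 in CA1 and DG on the Ion Proton.

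Each gene was also set against the rest of the group. Against the mean log2 level of the other 8, Emr1 stood at -0.71 ± 0.23 in young and -0.55 ± 0.17 in aged CA1 libraries (SD), a shift of 0.16, and the shift was 0.14 in CA3 and 0.19 in DG. Tmem119 moved the other way, by -0.10, -0.12 and -0.09. These shifts were not tested.

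The age differences of the 9 genes were also set against each other between subfields. The interaction was called for 0 of 9 genes by limma, edgeR and DESeq2, with 0 of 9 at an unadjusted p under 0.05, and 0% of all genes passed for any pair of subfields with limma. For Emr1 the difference between the age effects in CA1 and DG was -0.02 (95% interval -0.27 to 0.23), and for Cx3cr1 it was -0.05 (-0.26 to 0.17). The call of Cx3cr1 in DG alone therefore does not show that its age difference was larger there.

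The classes of aged rats were compared with young rats one by one. Against young rats, Emr1 was called in OG in CA1 (0.40, adjusted p = 0.0376) and DG (0.36, adjusted p = 0.0239), and in OB in DG (0.46, adjusted p = 0.000664), where Cx3cr1 was called too (0.36, adjusted p = 0.0163). In OB in CA1 Emr1 had 0.39 (adjusted p = 0.0641). The whole table had 0.169%, 0% and 0.0999% of genes called higher in OG in CA1, CA3 and DG, and 0.120%, 0% and 0.214% in OB. These comparisons share the 10 young rats. Without the libraries nearer to another subfield, and on the Ion Proton, no call remained in OG, whereas Emr1 was called in OB in DG in both and, without those libraries, in CA1 as well. The call of Emr1 in OG in CA1 was also lost without young rat R9876 or without the CA1 library of rat R9869. In DG 12 of 12 OB and 10 of 12 OG libraries of Emr1 exceeded the highest young library.

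Impaired and unimpaired aged rats were then compared to ask whether the genes go with spatial memory. None of the 9 passed in any subfield (limma, 0% of all genes called), and 0 of 9 had an unadjusted p under 0.05 in the Illumina table, with 0 called by edgeR and by DESeq2 as well. On the Ion Proton 0 were called too, and Emr1 in DG had an OB minus OG of 0.29 (95% interval 0.07 to 0.52, unadjusted p = 0.0124, adjusted p = 1 by limma). Over all genes 811, 199 and 539 had an unadjusted p under 0.05 in CA1, CA3 and DG. In CA1 the values of all 9 genes lay lower in OB, with a median OB minus OG of -0.09 and no gene past the threshold, and without the libraries nearer to another subfield 4 were higher and 5 lower. In CA3 7 and in DG 8 were higher in OB without passing, and in CA3 6 without the library of rat R2238 described below. The largest difference was that of P2ry13 in CA3, where OG ran from 35.99 through 54.9 to 90.48 and OB from 46.58 through 67.51 to 102.4 normalised reads (0.26, 95% interval -0.01 to 0.54, unadjusted p = 0.0579). For CA1, CA3 and DG in turn, the 95% intervals of OB minus OG in the Illumina table were -0.18 to 0.14, -0.12 to 0.40 and -0.03 to 0.23 for Emr1. For Tmem119 they were -0.28 to 0.17, -0.11 to 0.26 and -0.22 to 0.25.

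Levels of several of the 9 genes also differed between the rat number series, a comparison that was added after the data had been seen. In a fit with age and series, Tmem119, P2ry12, Csf1r and Itgam were higher in rats numbered from 9000 in CA1 and in DG, and Tmem119 and Csf1r in CA3. Over all genes, 35.7%, 51.8% and 29.8% were called in CA1, CA3 and DG in either direction. Itgam differed by 0.56 in DG (SE 0.0976, adjusted p = 4.4e-05) and by 0.52 in CA1 (SE 0.0908, adjusted p = 3.76e-05), but by -0.11 in CA3 (adjusted p = 0.496). Tmem119 differed by 0.30, 0.25 and 0.32. Emr1 differed by -0.01, 0.12 and 0.09, and Gpr34, P2ry13 and Aif1 were not called in any subfield of the Illumina table.

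The other tables gave only part of these calls. On the Ion Proton, where 7.91%, 19.9% and 20.0% of all genes were called in CA1, CA3 and DG, Itgam was higher from 9000 in CA1 (0.52) and DG (0.45), Csf1r in CA1 (0.24), Emr1 in CA3 (0.36, limma adjusted p = 0.036) and Aif1 in DG (0.34, adjusted p = 0.0436). Tmem119 and P2ry12 were called in no subfield there. In the WT table (19.7%, 44.0% and 27.8% of all genes), Tmem119, P2ry12, Csf1r, Itgam and Aif1 were called higher in DG and Itgam in CA1 (0.29). There Emr1 was called lower in CA1 (-0.25), and Cx3cr1 (-0.34) and Itgam (-0.47) lower in CA3.

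Age was spread over both series. Within the series below 9000, Emr1 in DG had 141 ± 25.3 normalised reads in young (SD, n = 5) and 191 ± 23.1 in aged rats (n = 13). From 9000 it had 152.9 ± 6.45 (n = 5) and 199.5 ± 16.8 (n = 11). Aged means were above young means in both series for all 27 combinations of gene and subfield. Within a single series 0 of 9 genes were called in each subfield with the smaller groups. The share of all genes called in those fits is not given here, so this count cannot be set against it. With the series as a covariate, Emr1, P2ry12 and Csf1r were called in CA1, and Emr1, Cx3cr1, P2ry12 and Csf1r in DG, while 0.775%, 0.0211% and 0.613% of all genes were called higher in CA1, CA3 and DG. A test of whether the age difference itself differed between the series called 0 of 9 genes in each subfield (0% of all genes), with 0 of 9 at an unadjusted p under 0.05.

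**Figure D4:**
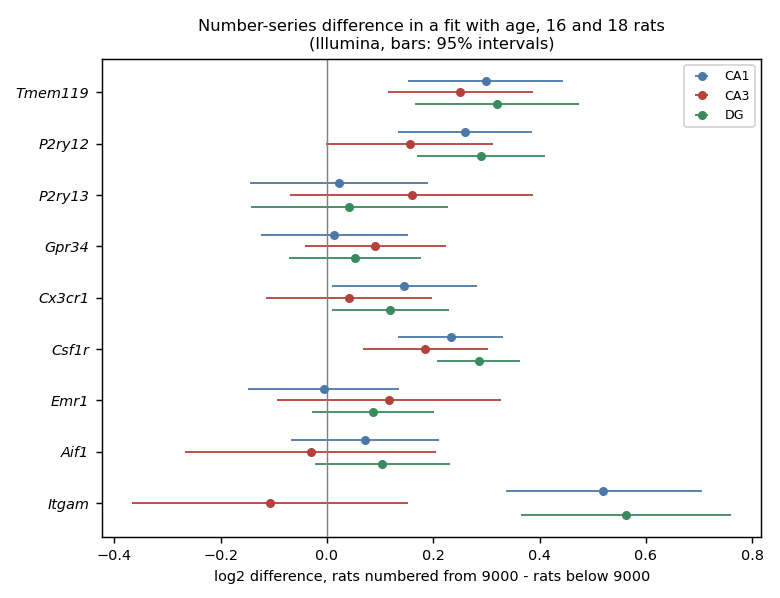
Log2 difference between 16 rats numbered from 9000 and 18 rats below 9000 (x axis) from a fit with age, for each gene and subfield, with 95% intervals as bars. Itgam is highest in CA1 and DG at 0.52 and 0.56, and Emr1 and Gpr34 lie near 0.

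Some libraries lay at the end of the range for many of the genes. The CA3 library of the aged impaired rat R2238 was the highest of 34 for 7 of the 9 genes, with Itgam at 1042 (median of the others 335, highest of the others 594.5), Aif1 at 796.1 and Emr1 at 555.5 normalised reads. In the WT table, a further library set of the same rats with no stated library type, it was highest for 8 of 9, and in the Ion Proton table for 3 of 9. On the Ion Proton it ranked 18 of 34 for P2ry12 and 33 of 34 for Gpr34 (74.56, median of the others 159.9). The CA1 and DG libraries of this rat were highest for none of the 9, with median ranks of 20 and 21 among 34. The summed level of 22 other microglial genes was also highest in this CA3 library (18720, against 8123 to 13060 in the other 33). Of these genes 12 were highest there, among them Ctss and C1qa, while Trem2 ranked 16, Ltc4s 27 and Olfml3 33 of 34. The sum of 20 activation genes ranked 12, with 7 of them highest there, among them Cd74 (8694, against at most 4144), Cd68 (168.9, against at most 51.63) and Clec7a (49.92, against at most 27.36), and Apoe, the most abundant, ranking 32. These genes of the library were singled out after their values had been seen. Also highest was the sum of 11 blood leukocyte genes (469.7, against 37.73 to 185.7), which rested on Plac8 (268.8, against at most 26.51) and Itgal (193.3, against at most 124.4). The T cell genes Cd3e and Cd3d were at 1.28 each and the neutrophil genes S100a8 and S100a9 at 0, and border macrophage markers ranked 25 of 34. Without this library, the CA3 age differences ran from 0.11 to 0.31 and still 0 of 9 genes were called.

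**Figure D5:**
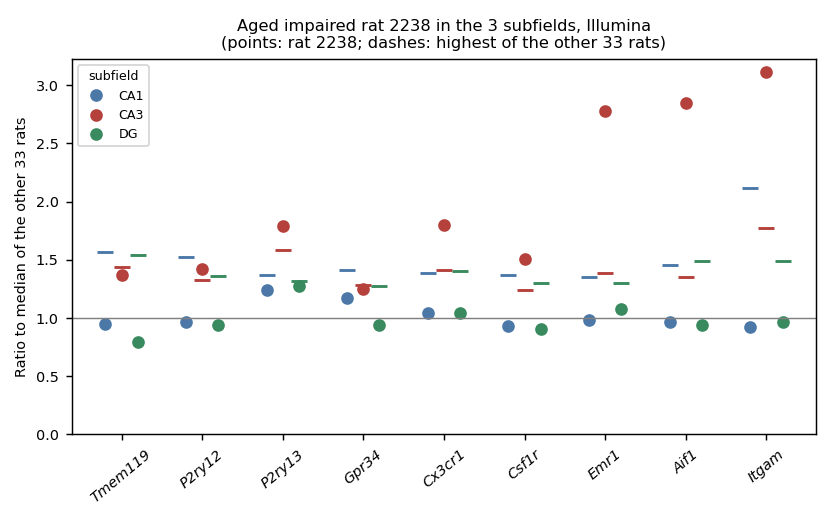
Level of each gene in the libraries of aged impaired rat R2238 as a ratio to the median of the other 33 rats (y axis, from 0), by subfield, with dashes at the highest of the other rats. In CA3 the ratio is highest for Itgam, Aif1 and Emr1, while all CA1 and DG points lie below the highest of the other rats.

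The CA1 library of the aged unimpaired rat R9869 was the highest for 6 of 9 genes in CA1, and for 2 of 9 in each of the Ion Proton and WT tables. This library lay nearer to DG by its markers, the DG library of the same rat lay nearer to CA1, and in the CA1 library the summed CA1 markers were the lowest of 34 (2555, against 9097 to 25260) and the oligodendrocyte markers the highest (300500, against 77090 to 222900). Without it Emr1 remained called for age in CA1, while the call in OG against young was lost. In DG the library of the aged impaired rat R9781 was the highest for 5 of 9 genes. By markers it lay nearer to CA3, and the CA3 library of the same rat lay nearer to DG. No fit left out this DG library alone. Among young rats, the CA1 library of rat R9780 was the highest for 5 of 9 genes, among them P2ry12 (289.7, young mean 222.2 with and 214.7 without it), and without that rat Aif1, P2ry12 and Emr1 were called for age in CA1. The fits without the libraries of rats R2238 and R9869 were chosen after the data had been seen.

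Whether a rat's level in one subfield went with its level in another was examined in 27 relations (Pearson's r and Spearman's rho over 34 rats, 100000 permutations each, two-sided, Benjamini-Hochberg over the 27). For 9 relations the adjusted p of r was under 0.05, for 8 of them that of rho as well, and only 3 of the 9 had an r above 0.2 in both number series. Tmem119 went together most, between CA1 and CA3 (r = 0.771, permutation p = 1e-05, the smallest these permutations can give, adjusted 0.00027, rho = 0.717, adjusted 0.00027). Its r was 0.606 and 0.708 within the series and 0.707 without the 2 rats farthest from the median, R9781 and R9782. The relations were not computed again without the libraries nearer to another subfield. Nor were they computed without the 7 rats whose Illumina libraries all held over 25 M reads, which include R9781 and R9782. P2ry13 was also positive within both series between CA1 and CA3 (r = 0.561, permutation p = 0.00077, adjusted 0.00416, rho = 0.525, permutation p = 0.0017, r = 0.626 without the 2 farthest rats, within series 0.732 and 0.451). Itgam between CA1 and DG (r = 0.718, permutation p = 2e-05, rho = 0.667, permutation p = 4e-05, r = 0.72 without the 2 farthest rats) had 0.686 below 9000 but -0.04 from 9000. For Csf1r between CA1 and DG (r = 0.512, permutation p = 0.00201, rho = 0.541, permutation p = 0.00112, r = 0.585 without the 2 farthest rats) the values within the series were 0.113 and -0.149, so the relation did not hold within them. For Gpr34, Cx3cr1, Emr1 and Aif1 no pair of subfields passed.

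The 9 genes were correlated with each other across all Illumina libraries, 3 per rat, after the mean of each subfield and group had been subtracted. These points share rats and depth, and the correlations are given as a description. Csf1r was closest to the mean of the other 8 (r = 0.866) and P2ry13 farthest (0.495), and the lowest pair was P2ry13 with Itgam (0.14). Of 14170 other genes, those most like the mean of the 9 were Anxa3 (r = 0.885), Laptm5 (0.88), Ctss (0.869), Tmem176a (0.852), C1qa (0.844), Fcer1g (0.832), Tmem176b (0.823), Pld4 (0.822), Npc2 (0.817) and Ncf1 (0.815).

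Of the ligands and partners of these receptors, few were called for age. Of 14 rows for such genes, 10 passed the filter on low values, and 1 was called, Itgb2, the chain that pairs with Itgam, in CA1 (0.46, SE 0.0958, adjusted p = 0.0148). Over all genes 0.338%, 0% and 0.285% were called higher in CA1, CA3 and DG. Itgb2 stood at 151.5 ± 28.1 in young and 209.7 ± 44 normalised reads in aged CA1 (SD, n = 10 and 24). The ligands were not called in any subfield. Cx3cl1 differed by -0.08, 0.08 and 0.04 in CA1, CA3 and DG, Il34 by -0.01, -0.15 and 0.05, Csf1 by 0.22, 0.08 and 0.13, and Tgfb1 by 0.24, 0.31 and 0.33. The receptors Tgfbr1 (0.14, 0.17 and 0.0089) and Tgfbr2 (0.27, 0.0026 and 0.19), the chain Itgb1 (-0.06, -0.14 and -0.06), and the adenosine genes Adora2a (0.24, 0.14 and 0.08) and Nt5e (-0.01, 0.12 and -0.04) did not pass either.

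Of 9 transcription factors with a role in microglia, 0 were called for age by limma in any subfield. With only 0.338%, 0% and 0.285% of all genes called higher in CA1, CA3 and DG, this count does not set the factors apart. Irf8 (0.43, 0.20 and 0.37), Spi1 (0.31, 0.34 and 0.30) and Cebpa (0.25, 0.07 and 0.27) had the larger values, with adjusted p of 0.077 for Irf8 in CA1 and 0.0711 for Cebpa in DG. Sall1, which is largely restricted to microglia among brain macrophages, differed by 0.19, 0.18 and 0.21. Mef2a differed by -0.14, 0.02 and -0.03, Mef2c by -0.14, 0.46 and 0.14, Smad3 by 0.02, 0.32 and 0.15, and Runx1 by 0.14, 0.04 and -0.07.

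With 0.338%, 0% and 0.285% of all genes called higher with age in CA1, CA3 and DG, limma called 4, 0 and 4 of the 21 other microglial genes tested. Their differences were above 0 for 21, 18 and 21 genes in CA1, CA3 and DG, with medians of 0.275, 0.20 and 0.27. Trem2, a lipid sensing receptor, rose in CA1 (0.49, adjusted p = 0.00575) and DG (0.38, adjusted p = 0.0103), as did Cd33 (0.45, adjusted p = 0.0032, and 0.39, adjusted p = 0.0257), and C1qa, the complement initiator chain, rose in DG (0.33, adjusted p = 0.0257). Laptm5 did not pass (0.29, 0.33 and 0.35). The summed level of these genes ran from 6528 through 7794 to 9345 in young and from 7449 through 9534 to 12590 normalised reads in aged DG.

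Genes known to go up in activated microglia were called for 3 of 14 tested in CA1, 0 of 14 in CA3 and 4 of 14 in DG. The shares of all genes called higher with age were 0.338%, 0% and 0.285%. The MHC class II chaperone Cd74 rose by 1.71 in CA1 (adjusted p = 0.00378) and 1.66 in DG (adjusted p = 0.0163), Gpr84 by 0.53 (adjusted p = 0.00569) and 0.48 (adjusted p = 0.0108), Gpnmb by 0.63 (adjusted p = 0.0186) and 0.60 (adjusted p = 0.0257), and the lysosomal Cd68 by 0.94 in DG (adjusted p = 0.00209). In CA3 Cd74 had 1.79 (adjusted p = 0.229).

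Markers of other macrophages and blood cells were not called for age (0.338%, 0% and 0.285% of all genes were called higher in CA1, CA3 and DG). Border macrophage markers, 9 genes with 5 or 6 tested, had medians of 0.10, -0.26 and 0.006, and their summed level was 150.3 to 1034 in aged and 153.2 to 521.9 in young CA1 libraries. Mrc1 differed by -0.08, -0.42 and -0.0013, and Cd163 by 0.23, -0.48 and 0.0063. Folr2 differed by 0.54 in CA1 (unadjusted p = 0.0417, limma adjusted p = 0.775) and 0.56 in CA3 and did not pass the filter in DG, and Lyve1 differed by 0.12, -0.12 and 0.18. Of 11 blood leukocyte genes 2 were tested in each subfield with 0 called, and 3 had a median of 0 in CA1. The T cell gene Cd3e stood at 72.12 ± 52.2 normalised reads in young and 60.45 ± 58.8 in aged CA1 (SD), a log2 difference of -0.39 (limma adjusted p = 0.97), and differed by -0.19 in DG. In young CA3 it stood at only 2.9 ± 2.84. Over the CA1 libraries other than that of rat R9869, medians were 42.66 for Cd3e, 0.3353 for Cd3d and 0 for Cd3g. The CA1 level of Cd3e thus did not go with those of its partner chains. The integrin chain Itgal differed by 0.28, 0.17 and 0.15, and Plac8, tested in CA3 only, by 0.51. The level of the 9 genes themselves summed to 3208 through 3628 to 4420 in young and 3315 through 4286 to 5896 in aged CA1.

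Among astrocyte markers Gfap rose in DG (0.41, adjusted p = 0.00209), with list medians of 0.05, 0.07 and 0.025 in CA1, CA3 and DG. Medians were 0.08, -0.06 and -0.045 for oligodendrocytes, 0.009, -0.018 and 0.043 for their precursors, -0.06, -0.06 and -0.03 for neurons and 0.05, -0.16 and 0.04 for endothelium, with 0 genes called in any of them (limma). Choroid plexus markers had medians of 0.91, -0.56 and 0.06 and meningeal markers of -0.05, -0.47 and 0.07, again with 0 called. Markers of CA1 (-0.08, -0.05 and 0.09), CA3 (-0.09, -0.04 and -0.11) and granule cells (-0.14, 0.25 and 0.01) were not called. The shares of all genes called higher with age were 0.338%, 0% and 0.285% in CA1, CA3 and DG. The part of these other cells in the age differences of the 9 genes was not tested.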

How the data were processed

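RNA of CA1, CA3 and DG from 34 rats was measured in 3 tables, each with 3 libraries per rat: poly-A on Illumina, poly-A on Ion Proton, and the WT table. Per the submitters' processing notes, Illumina reads were handled with bcl2fastq 2.17, cutadapt 1.8.3, STAR 2.5, featureCounts 1.4.4 and DESeq2 1.16.1 on build rn5, and Ion Proton reads, per the study's methods, with TopHat2, Bowtie2 and featureCounts. The deposited signal is a gene count that the authors divided by a size factor per library, and 100.0% of values gave whole reads (tolerance 0.01), so a count test was run as an alternative. The library type of the WT table is not given in the sources used here, and strand-specific counting is not stated. Here limma 3.58.1 (R 4.3.3, trend) was fitted to log2(value + 1) over all genes with a mean of at least 10, with Benjamini-Hochberg adjustment at 0.05 and 95% intervals from limma's t distribution. Alternatives used edgeR 4.0.16, DESeq2 1.42.0, other tables, filters, scalings and left-out libraries. In the subfield fit the libraries of a rat enter as independent, and the rat as a block was an alternative, since the same rat gave all 3 subfields. Scripts were tested on simulated data. The named genes are the 9 given by symbol, and from each other list up to 4 genes, or all of those for ligands, partners and transcription factors. The 9 genes and the lists were chosen with earlier results of these data known. Counting intervals do not cover differences between animals. The values of 1 listed transcription factor are not reported here.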

Additional observations from a re-analysis of the deposited data

How the results depend on the processing

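No single-gene age difference turned direction under the alternatives except Aif1 on the Ion Proton (1 of 144 values in CA1 and 1 of 135 in DG). Between subfields, Aif1 in CA1 minus DG (-0.0334) and Gpr34 in CA3 minus DG (-0.0153) turned on the Ion Proton. In CA1 minus CA3, where limma called none of the genes, 8 of 117 values turned: those of Aif1 with edgeR, DESeq2, the Ion Proton, without libraries nearer to another subfield and below 9000, that of Tmem119 on the Ion Proton, and those of Cx3cr1 and Itgam from 9000. The causes were not tested. The numbers of the 9 genes called changed as follows. For age in CA1 (1), the count was 0 in the Ion Proton and WT tables and in either number series alone, 3 with the series as covariate, and 1 to 3 when a single library or young rat was left out. For age in DG (2), it was 0 on the Ion Proton and in either series, 1 in the WT table and without the 7 deeply sequenced rats, and 4 with the covariate. Those 7 rats include the young rats R1922, R1923 and R9780. For OG against young in CA1 (1), it was 0 with no filter, edgeR, the Ion Proton, the WT table, either series and without libraries nearer to another subfield, 2 without the deep rats or without young rats R9876 and R9780 together, 3 with the covariate, and 0 to 2 with 1 left out (0 without young rat R9876 or the CA1 library of R9869, 2 without R9780). In DG (1) it was 0 on the Ion Proton, in either series and without libraries nearer to another subfield. For OB in CA1 (0), it was 1 with DESeq2, the covariate, without libraries nearer to another subfield and without both young rats, and 0 to 1 with 1 left out. In DG (2) it was 1 on the Ion Proton, in the WT table, from 9000 and without the deep rats, 0 below 9000 and 4 with the covariate. For CA1 against CA3 (0), it was 1 below 9000, with quantile normalisation, edgeR, DESeq2, the WT table and without libraries nearer to another subfield, 2 on the Ion Proton and 2 with the replicate block, and 0 to 1 with 1 left out. For CA1 against DG (9) it was 4 on the Ion Proton. A single series holds fewer rats than the whole. For alternatives with no share of all genes given above, these counts show only how the calls of the 9 genes moved. The block changed no other count by over 1.5 times. Leaving out 1 library or young rat, and both young rats together, was in part chosen after seeing the data. P2ry13 had the fewest reads, with 16 in its lowest library.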
